A study of Mus musculus with 2 samples.

Results

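Among 21034 nuclei of mouse colon that passed quality filters, 656 carried the transcripts of absorptive cells at the surface of the distal colon, 359 in the Pink1 KO library and 297 in the WT library. They were chosen by measured values: at least 3 UMIs (unique molecular identifiers, each 1 captured transcript) over Slc37a2, Atp12a, Car4, Aqp8 and Slc15a1 from at least 2 of these genes, at least 1 UMI of Slc26a3, and Muc2 under 0.5% of the nucleus's UMIs. The levels of those genes therefore describe the choice and are not findings. The nuclei made up 2.96% of the kept nuclei in the Pink1 KO library (95% interval 2.66 to 3.27) and 3.34% in the WT library (2.98 to 3.74). The ratio of these shares was 0.885 (0.756 to 1.03), an interval for counting error that includes 1. With 1 library per genotype, a difference in share between genotypes could not be tested.

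The study compared the colon of male C57BL/6 mice, 15 weeks old and lacking Pink1 (Pink1 KO), with that of wild-type littermates (WT) of the same age and sex. Pink1 is the kinase that marks damaged mitochondria for removal, and no treatment is named for either group. Nuclei from the minced colon were stained, sorted and pooled from 3 mice per genotype into 1 library, which counts transcripts by tags at their 3′ end. The 2 libraries were also labelled as different batches (batch 2 for Pink1 KO and batch 1 for WT), so genotype, library and batch cannot be told apart, and the design allows no test of genotype. The sources used here do not say how the Pink1 allele was made, and no value can be traced to 1 mouse. The deposit holds 12230 barcodes with 22446326 UMIs for Pink1 KO and 8924 barcodes with 16997995 UMIs for WT. Every interval in parentheses is a 95% interval for counting error only: it does not cover variation between mice. In counts summed over nuclei, fewer nuclei of a type and less RNA per nucleus cannot be told apart.

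Surface colonocytes are the last stage of the absorptive lineage before cells are shed into the lumen. They take up sodium through the exchanger encoded by Slc9a3 and through the epithelial sodium channel, and exchange chloride for bicarbonate through Slc26a3, with bicarbonate supplied by carbonic anhydrases such as Car4 on the apical membrane. In the distal colon they also carry the proton and potassium pump encoded by Atp12a, and water and small solutes pass through channels such as Aqp8. Slc37a2 encodes a sugar phosphate exchanger of the endoplasmic reticulum membrane, and Slc15a1 encodes the peptide transporter PepT1.

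The promoters of genes that the rule used, and of Emp1, a gene that separated the libraries, are printed because Slc37a2 stood lower in the Pink1 KO library while Car4, Aqp8 and Emp1 stood higher. Each window runs from 250 bases before to 50 after the transcription start given by RefSeq on GRCm38.p6, 5′ to 3′ on the gene's own strand, and capitals mark matches to any of 7 short motifs searched on both strands. Promoters of 5 of the 6 genes of the rule were matched by symbol. Slc37a2 lies at chr9:37255689-37255988 on the minus strand, Car4 at chr11:84957504-84957803, Aqp8 at chr7:123462044-123462343 and Emp1 at chr6:135362681-135362980, the last 3 on the plus strand.
Slc37a2: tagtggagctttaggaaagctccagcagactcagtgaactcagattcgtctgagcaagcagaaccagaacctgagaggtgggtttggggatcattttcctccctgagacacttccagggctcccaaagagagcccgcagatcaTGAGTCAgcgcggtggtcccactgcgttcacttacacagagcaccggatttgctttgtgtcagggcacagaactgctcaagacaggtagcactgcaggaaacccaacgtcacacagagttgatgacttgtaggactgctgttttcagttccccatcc
Car4: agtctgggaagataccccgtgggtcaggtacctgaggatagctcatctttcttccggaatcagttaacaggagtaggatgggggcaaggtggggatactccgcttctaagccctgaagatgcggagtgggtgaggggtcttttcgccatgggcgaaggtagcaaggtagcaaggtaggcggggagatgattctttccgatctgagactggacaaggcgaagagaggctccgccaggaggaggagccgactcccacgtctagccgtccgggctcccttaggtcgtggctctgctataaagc
Aqp8: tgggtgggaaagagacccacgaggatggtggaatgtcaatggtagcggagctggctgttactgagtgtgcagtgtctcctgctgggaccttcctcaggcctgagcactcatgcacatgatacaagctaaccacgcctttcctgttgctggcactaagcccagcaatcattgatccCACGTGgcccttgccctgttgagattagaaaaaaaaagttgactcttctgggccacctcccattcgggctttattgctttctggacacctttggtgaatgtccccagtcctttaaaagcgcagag
Emp1: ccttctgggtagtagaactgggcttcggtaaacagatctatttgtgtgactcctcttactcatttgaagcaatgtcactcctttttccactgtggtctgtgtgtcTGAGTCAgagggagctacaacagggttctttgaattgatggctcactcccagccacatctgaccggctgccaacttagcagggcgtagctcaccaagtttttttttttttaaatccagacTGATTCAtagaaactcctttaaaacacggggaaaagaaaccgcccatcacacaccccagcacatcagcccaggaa
The Slc37a2 window held 1 match to the AP-1 motif (TGANTCA), starting at position -107 from the start site. The Emp1 window held 2 matches to the same motif, at -145 and -25, whereas the other Emp1 promoter in the table, at chr6:135367243-135367542, held none and had a CDX match at -110. The Aqp8 window held 1 match to the E-box (CACGTG) at -75. The other motifs searched were those of the CDX factors, spelled TTTATG, of the hepatocyte nuclear factor HNF4, spelled CAAAGTCCA, of the clock-output D-box, spelled TTATGNAA, and of the GATA factors, spelled AGATAA, with the glucocorticoid response element beside them. None of the 7 was found in the Car4 window. Among all 32851 promoters of the same length, 7.81% held the AP-1 motif and 7.15% the E-box, and a CDX match can overlap a D-box match. A match is a description of letters, not a binding site.

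The genes of the rule were unevenly represented in the libraries. Slc37a2 averaged 688 counts per 1000000 nuclear-encoded UMIs (CPM) in the chosen nuclei of the Pink1 KO library (632 to 747) and 1613 CPM in those of the WT library (1518 to 1712), a ratio of 0.426 (0.384 to 0.473). It was seen in 47.1% of the chosen Pink1 KO nuclei and in 71.0% of the WT nuclei. After every nucleus was thinned to 500 UMIs, these shares were 25.6% in the Pink1 KO library and 39.7% in the WT library. Slc37a2 supplied 15.4% of the UMIs of the 5 genes in the chosen Pink1 KO nuclei, against 37.6% in the WT nuclei.

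Aqp8, Atp12a and Car4 ran the other way. Aqp8 stood at 986 CPM in the Pink1 KO library (919 to 1057) and 574 CPM in the WT library (518 to 635). Atp12a had 822 CPM (761 to 887) in Pink1 KO and 499 CPM (447 to 556) in WT, and Car4 1629 CPM (1543 to 1720) in Pink1 KO and 1160 CPM (1080 to 1245) in WT. The ratios of Pink1 KO over WT were 1.72 for Aqp8, 1.65 for Atp12a and 1.40 for Car4. Slc26a3, the chloride and bicarbonate exchanger, was at 5694 CPM in Pink1 KO and 4392 CPM in WT (ratio 1.30, 1.24 to 1.36), and Slc15a1 at 339 CPM in Pink1 KO and 441 CPM in WT (ratio 0.769, 0.650 to 0.910).

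Because a rule that sums 5 genes can trade one against another, each gene was also counted where it had no part in the choice. In nuclei that passed the rule without the gene in question, the ratio was 0.435 for Slc37a2, 1.69 for Atp12a, 1.57 for Car4, 1.64 for Aqp8, 0.783 for Slc15a1 and 1.27 for Slc26a3. Over all kept nuclei of each library, with no choice at all, it was 0.315, 1.76, 1.41, 1.56, 0.783 and 1.15 in the same order. Each gene kept its side of 1 in all 3 counts, but these counts share nuclei, since all kept nuclei include the chosen ones. For Slc26a3, dropping its condition added only nuclei without its UMIs. Its counts stayed at 4620 in Pink1 KO and 2930 in WT, so its side could not change. Nuclei with at least 3 UMIs of fibroblast or smooth muscle markers, which should lack these genes, gave a level for free RNA. Slc37a2 was seen in 2.61% of 1339 such nuclei in the Pink1 KO library (median 1558 UMIs) and 3.38% of 711 in the WT library (median 1540 UMIs). Over all kept nuclei it was seen in 3.22% in Pink1 KO (median 1623 UMIs) and 7.34% in WT (median 1665 UMIs). Its share in the chosen nuclei (median 1950 UMIs in Pink1 KO and 2091 in WT) was set in part by the rule, so it cannot be weighed against free RNA.

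**Figure D1:**
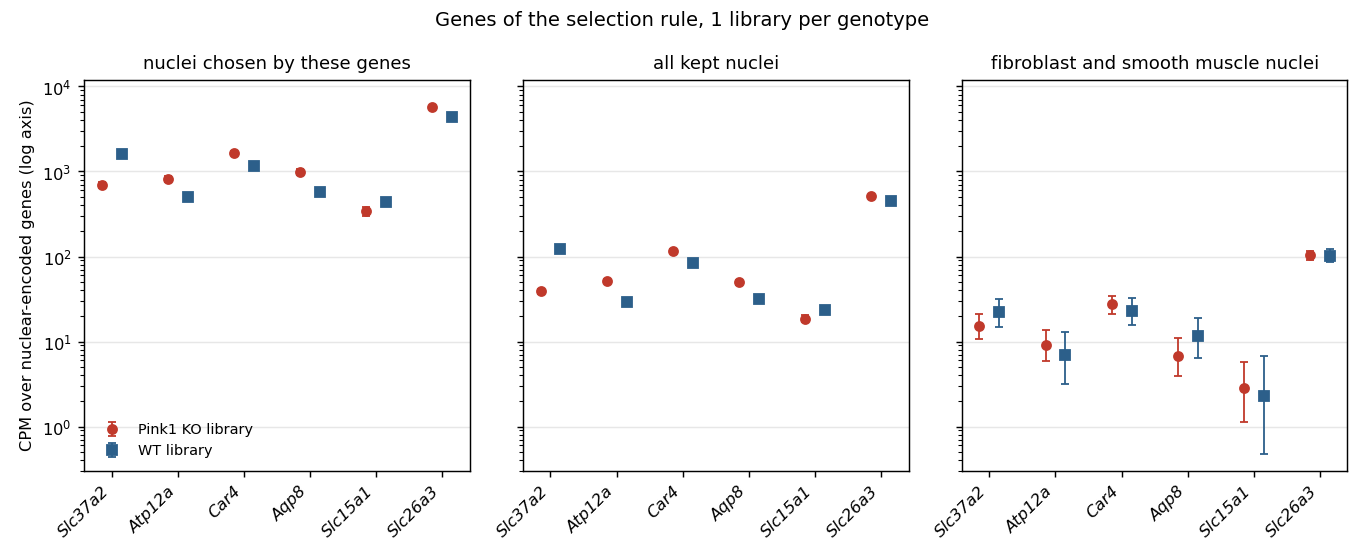
Levels in CPM (log axis) of the 6 genes used by the rule, in the chosen nuclei, in all kept nuclei and in nuclei with fibroblast or smooth muscle markers; circles are the Pink1 KO library, squares the WT library, and bars are 95% Poisson intervals, often smaller than the symbols. Slc37a2 and Slc15a1 lie lower in the Pink1 KO library in the first and second panels, the other 4 genes higher, and in stromal and muscle nuclei the intervals of the libraries overlap for every gene.

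The chosen nuclei carried 2, 3, 4 or all 5 of the summed genes in 136, 94, 91 and 38 nuclei of the Pink1 KO library and in 116, 88, 60 and 33 nuclei of the WT library. Car4 and Aqp8 were seen together in 226 Pink1 KO nuclei and 140 WT nuclei, whereas Slc37a2 and Slc15a1 were seen together in 84 Pink1 KO nuclei and 116 WT nuclei. At the edge of the rule, nuclei with exactly 3 UMIs of the 5 genes (42 in Pink1 KO and 43 in WT) had 4007 CPM of Slc26a3 in the Pink1 KO library and 3212 CPM in the WT library. Nuclei just outside, with 2 UMIs from 2 of the genes (43 in Pink1 KO and 38 in WT), had 2464 CPM of Slc26a3 in Pink1 KO and 3547 CPM in WT.

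The name was checked against genes the rule did not use. The comparison was with the 1941 Pink1 KO and 1399 WT nuclei that also had a UMI of Slc26a3 and Muc2 under 0.5% but did not pass the rule, called other colonocyte nuclei here. Across 7979 genes with at least 50 counts over both sets of nuclei in each library, 5.1% were at least 1.5-fold higher in the chosen nuclei in both libraries and 23.6% at least 1.5-fold lower. The median log2 ratio of all these genes was -0.35 in the Pink1 KO library and -0.34 in the WT library, so a ratio of 1 already lies above the middle of the genes. Since the nuclei were chosen by their RNA, these ratios carry no test.

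Hox genes, whose order along each cluster follows the body axis from front to rear, separated by position. Hoxd11 was 2.77-fold higher in the chosen nuclei of the Pink1 KO library (2.11 to 3.63) and 3.14-fold in the WT library (2.46 to 4.01). Hoxd10 was 2.54-fold higher in Pink1 KO and 2.85-fold in WT, and Hoxb13, which marks the hindmost gut, 1.49-fold in Pink1 KO and 1.85-fold in WT. In contrast, 10 of the 12 anterior and central Hox genes measured were at least 1.5-fold lower in both libraries. Hoxb5 was at 27.1 CPM in the chosen nuclei and 143 CPM in the other colonocyte nuclei of the Pink1 KO library (ratio 0.189), and at 30.0 CPM and 167 CPM in those of the WT library (ratio 0.180). Not every posterior gene was higher: of 8 measured, 2 were at least 1.5-fold higher in both libraries and 2 lower, namely Hoxa9 (0.513 in Pink1 KO and 0.354 in WT) and Hoxb9 (0.254 in Pink1 KO and 0.423 in WT).

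**Figure D2:**
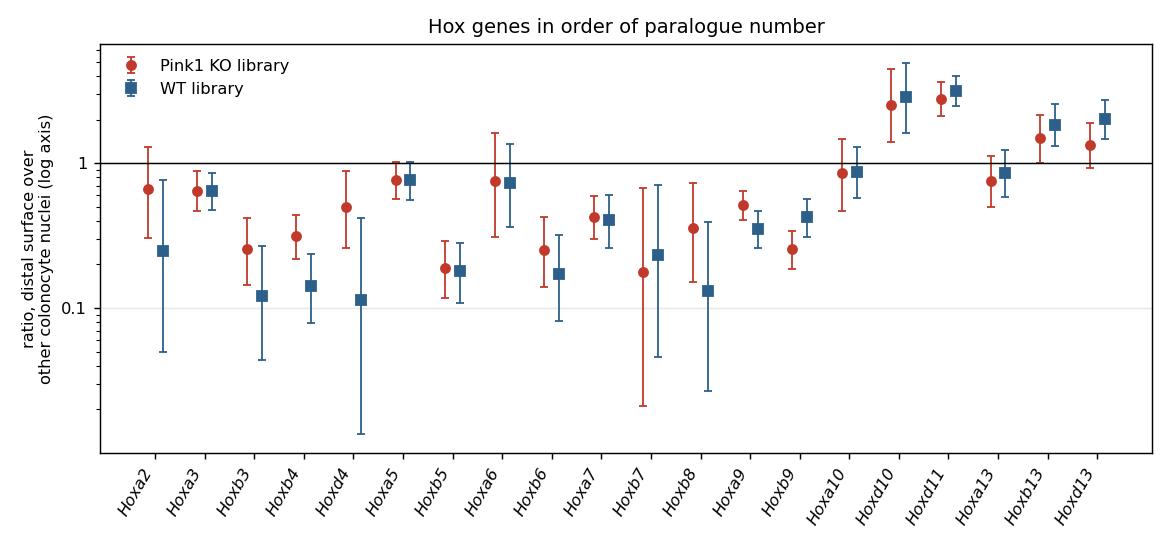
Ratio of CPM in the distal surface colonocyte nuclei over that in the other colonocyte nuclei (log axis) for Hox genes with at least 50 counts over both sets of nuclei in each library, in order of paralogue number; circles are the Pink1 KO library, squares the WT library, and bars are 95% intervals for counting error. Genes from Hoxa2 to Hoxb9 lie below 1 in both libraries, and Hoxd10, Hoxd11, Hoxb13 and Hoxd13 lie above it.

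Surface genes gave a mixed picture. Lypd8, which encodes a secreted and membrane-anchored protein that keeps flagellated bacteria off the epithelium, was 3.73-fold higher than in the other colonocyte nuclei in the Pink1 KO library and 3.99-fold in the WT library. Ceacam20, a brush border adhesion protein, was 2.75-fold higher in Pink1 KO and 2.72-fold in WT. Krt20, the keratin of terminally differentiated gut epithelium, was 2.42-fold higher in Pink1 KO and 2.08-fold in WT. Guca2a, the guanylin precursor, was about level with the other colonocyte nuclei (1.17 in Pink1 KO and 1.02 in WT), and so was Slc9a3 in the WT library (1.41 in Pink1 KO and 1.09 in WT). The water channel gene Aqp4 was far lower, at 0.139 of the other nuclei in Pink1 KO and 0.185 in WT. Of the 23 brush border and differentiation genes measured, 7 were at least 1.5-fold higher in both libraries and 1 lower, and the other 15, Guca2a among them, did not pass that bound in both. Neither list, Hox or brush border, therefore goes with the name in all its members.

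Transport genes beyond the rule went both ways. Of 16 sodium absorption genes 4 were at least 1.5-fold higher in both libraries and 1 lower, of 10 chloride and bicarbonate transport genes 3 were higher and 5 lower, and of 7 water and potassium channel genes 1 was higher and 4 lower. Slc20a1, a sodium-coupled phosphate transporter, had 2646 CPM in the chosen nuclei and 605 CPM in the other colonocyte nuclei of the Pink1 KO library (ratio 4.37), and 3306 CPM and 573 CPM in those of the WT library (ratio 5.76). Slc34a2, another sodium phosphate cotransporter, was 8.46-fold higher in Pink1 KO and 7.43-fold in WT. Fxyd4, a regulator of the sodium pump that is induced by corticosteroids, was 5.12-fold higher in Pink1 KO and 6.76-fold in WT, and Scnn1a, the alpha subunit of the epithelial sodium channel, 3.33-fold in Pink1 KO and 3.62-fold in WT. The chloride channel gene Cftr went the other way, at 0.338 in Pink1 KO and 0.251 in WT, as did Car12, at 0.159 in Pink1 KO and 0.151 in WT.

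Saa1, a serum amyloid A gene of the acute phase, was among the genes that set the nuclei apart most. It had 2518 CPM in the chosen nuclei and 115 CPM in the other colonocyte nuclei of the Pink1 KO library (ratio 21.9, 19.8 to 24.3), and 1211 CPM and 61.5 CPM in those of the WT library (ratio 19.7, 16.8 to 23.2). Cyp2d12, a cytochrome P450 gene, was 25.1-fold higher in Pink1 KO and 17.6-fold in WT. Ly6g, of the Ly6 family of membrane-anchored proteins, was 22.9-fold higher in Pink1 KO and 16.4-fold in WT, and Bmp2, a ligand of the bone morphogenetic protein family, 5.28-fold in Pink1 KO and 6.91-fold in WT. Of 16 glycolysis genes, 6 were at least 1.5-fold higher in both libraries and 0 lower, with Hk2, a hexokinase, at 2.46 in Pink1 KO and 3.03 in WT. Saa1, Cyp2d12 and Ly6g have close relatives in the genome, and the sources used here do not say how the counting shared reads among them.

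A narrower comparison was made with 115 Pink1 KO nuclei and 44 WT nuclei that had at least 3 UMIs of Slc9a3, Krt20 and Guca2a from at least 2 of these, met the same conditions on Slc26a3 and Muc2, and did not pass the rule. Nuclei that also met the like rule for Hsd3b3, Apol10a and Ces1f, or for Slc10a2, Abca12 and Slc13a1, were left out. The WT set is under 50 nuclei, so its ratios are wide. Of 2671 genes, 5.13% were at least 1.5-fold higher and 4.23% lower in the chosen nuclei in both libraries. Saa1 was again higher (6.89-fold in Pink1 KO and 4.45-fold in WT), as were Slc20a1 (2.55-fold in Pink1 KO and 4.26-fold in WT) and Slc4a4, a sodium bicarbonate cotransporter (2.89-fold in Pink1 KO and 3.09-fold in WT). Selenop, a selenium carrier, was 3.28-fold higher in Pink1 KO and 7.28-fold in WT. Hoxd11 was 6.16-fold higher in Pink1 KO and 4.18-fold in WT, and Bmp2 4.02-fold in Pink1 KO and 3.38-fold in WT. Cyp2d12 had 177 counts in the chosen Pink1 KO nuclei and 0 in the compared nuclei, whose floor of 3 counts is 13.2 CPM, against 218 CPM in the chosen nuclei. Its WT ratio was 13.8, resting on 2 counts in the compared nuclei (3.77 to 115).

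Genes lower than in those Slc9a3, Krt20 and Guca2a nuclei were led by Emp1, an epithelial membrane protein, at 0.393 in Pink1 KO and 0.107 in WT. The proprotein convertase gene Pcsk5 was at 0.336 in Pink1 KO and 0.168 in WT, and the stress and differentiation gene Ndrg1 at 0.304 in Pink1 KO and 0.262 in WT. Aqp4 stood at 0.406 in Pink1 KO and 0.291 in WT, Car1, a cytosolic carbonic anhydrase, at 0.582 in Pink1 KO and 0.532 in WT, and the P450 gene Cyp2c55 at 0.580 in Pink1 KO and 0.439 in WT. The calcium exchanger gene Slc8a1, the glycosyltransferase gene Mgat4c and the histone deacetylase gene Hdac1 were also lower in both libraries, between 0.364 and 0.521 in Pink1 KO and between 0.207 and 0.244 in WT, but Hdac1 reversed to 2.79 in Pink1 KO when nuclei were thinned before the choice. Of 22 brush border genes measured, 1 was at least 1.5-fold higher in both libraries and 3 lower (Emp1, Guca2a and Lgals3), with a median log2 ratio of -0.10 in Pink1 KO and -0.24 in WT, beside -0.08 in Pink1 KO and -0.14 in WT over all genes. Krt20 and Guca2a belong to this list and were used to choose the compared nuclei, so the tally is a description only.

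Set against the 594 Pink1 KO and 441 WT nuclei with at least 3 UMIs of Hsd3b3, Apol10a and Ces1f, markers of another colonocyte state, the chosen nuclei stood further apart. Of 5192 genes, 8.78% were at least 1.5-fold higher in the chosen nuclei in both libraries and 24.3% lower. Tgm3, a transglutaminase that crosslinks proteins, had 446 CPM in the chosen nuclei and 20.5 CPM in the compared nuclei of the Pink1 KO library, and 472 CPM and 38.4 CPM in those of the WT library. Trpv3, a heat-sensitive calcium channel, had 261 CPM and 16.2 CPM in those of the Pink1 KO library, and 435 CPM and 19.2 CPM in those of the WT library. Brush border genes were at least 1.5-fold higher in 10 of 22 cases in both libraries and lower in 0, and membrane-bound mucins higher in 2 of 3. The compared nuclei leave out those that also met the rule for Slc9a3, Krt20 and Guca2a. Krt20 and Guca2a belong to the brush border list, so its tally is a description only. Of 17 genes of butyrate and fatty acid oxidation, 2 were higher and 8 lower in both libraries.

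Between the libraries, brush border genes, immediate early genes and membrane-bound mucins of the chosen nuclei were mostly higher in Pink1 KO, and clock genes went both ways. Of 4458 genes with at least 50 counts in the chosen nuclei of both libraries together, 10.3% were at least 1.5-fold higher in the Pink1 KO library and 8.52% at least 1.5-fold lower, with a median log2 ratio of 0.00. With 1 library per genotype these are descriptions of the libraries. The chosen nuclei held 823655 UMIs in the Pink1 KO library and 672323 in the WT library, with medians of 952 genes per nucleus in Pink1 KO and 1042 in WT.

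Of 22 brush border and differentiation genes, 13 were at least 1.5-fold higher in the Pink1 KO library and 0 lower, and the median log2 ratio was 0.72. Krt20 had 752 counts in Pink1 KO nuclei and 228 in WT nuclei, or 927 CPM in Pink1 KO and 342 CPM in WT, a ratio of 2.71 (2.34 to 3.16), which was 1.72 in nuclei chosen after thinning to 500 UMIs. Ratios given for nuclei chosen after thinning are from the thinned counts, so those of rare genes rest on few UMIs. Plac8, a small cysteine-rich protein, was 3.04-fold higher in Pink1 KO, at 844 CPM against 277 CPM in WT. Ceacam1, an adhesion receptor of the apical membrane, had 1436 CPM in Pink1 KO and 582 CPM in WT (ratio 2.47, 2.20 to 2.78). The guanylin precursor Guca2a was at 555 CPM in Pink1 KO and 269.8 CPM in WT (ratio 2.06), but its ratio was 1.28 under a stricter rule of 5 UMIs from 3 genes and 3.52 under a rule by share of UMIs. Structural genes of the microvilli were higher too, with Cdhr5, a protocadherin linking microvillus tips, at 2.13, Eps8, an actin-capping protein, at 1.89, Vil1, the actin bundler villin, at 1.77, and Ezr, the membrane and actin linker ezrin, at 1.61. Myo1a (1.24), Ush1c (1.13), Mep1a, Anks4b and Myo7b (1.01 each) and Espn (0.712) lay between the 1.5-fold bounds.

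Emp1 gave the highest ratio of that list, with 898 CPM in Pink1 KO and 162 CPM in WT (ratio 5.55, 4.53 to 6.86), and it depended on the choice of nuclei. Under the rule of 5 UMIs from 3 genes the Emp1 ratio was 1.78, and among nuclei with a Slc37a2 UMI it was 2.34. Slc9a3, the sodium and proton exchanger, had 854 CPM in Pink1 KO and 274 CPM in WT (ratio 3.11, 2.64 to 3.68), and 1.73 under that stricter rule. Among membrane-bound mucins, 3 of 4 measured were at least 1.5-fold higher in Pink1 KO and 0 lower: Muc4 at 3.93 with 43 counts in Pink1 KO and 9 in WT, Muc3a at 2.49 and Muc13 at 1.62, with Muc3 at 1.48. The Muc3a ratio was 1.34 under the stricter rule.

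The genes highest in Pink1 KO over all genes were Ly6m, Egr1, Hbegf, Sgk1, Emp1, Fos, Gcnt3, Clca4a, H3f3b and Atf3. Ly6m, a Ly6 family gene, had 371 counts in 27.3% of the Pink1 KO nuclei and 19 counts in 4.71% of the WT nuclei, 457 CPM against 28.5 CPM in WT (ratio 16.1, 10.1 to 27.0). The ratio was 8.42 with the looser filter on nuclei and 25.2 with the stricter one. Clca4a, of the family of secreted chloride channel regulators, had 721 CPM in Pink1 KO and 174 CPM in WT (ratio 4.15, 3.39 to 5.10), and 2.31 under the rule of 5 UMIs from 3 genes. Gcnt3, which branches mucin glycans, had 124 counts in Pink1 KO and 18 in WT (ratio 5.66, 3.44 to 9.87), and 2.91 under the stricter rule. H3f3b, a gene for the replacement histone H3.3, was at 1146 CPM in Pink1 KO and 297 CPM in WT (ratio 3.86).

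**Figure D3:**
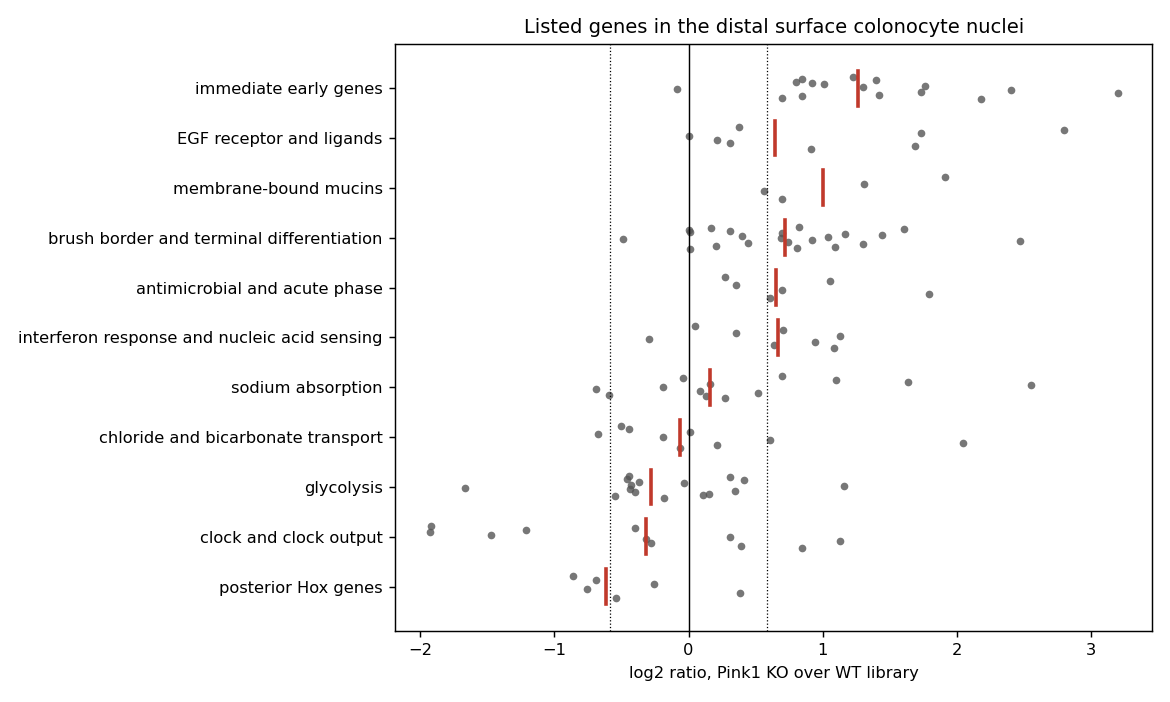
Log2 ratio of Pink1 KO over WT library for each listed gene with at least 50 counts over the distal surface colonocyte nuclei of both libraries (grey points), with the list's median as a red bar; the solid line is no difference and the dotted lines are 1.5-fold. Immediate early genes lie to the right except Fosl2, and the posterior Hox genes lie to the left except Hoxa9.

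Immediate early genes answer a stimulus before new protein is made. In the Pink1 KO library 15 of the 16 measured were at least 1.5-fold higher. Their median log2 ratio was 1.26. Egr1, a zinc finger transcription factor, had 273 counts in Pink1 KO and 24 in WT, 336 CPM against 36.0 CPM in WT (ratio 9.35, 6.15 to 14.9). Fos, which pairs with Jun proteins in AP-1, had 993 CPM in Pink1 KO and 187 CPM in WT (ratio 5.30, 4.39 to 6.45), and Atf3, a stress-induced factor, 159 CPM in Pink1 KO and 34.5 CPM in WT (ratio 4.61). Choosing nuclei after thinning gave 6.21 for Egr1 and 1.66 for Atf3, and Egr1 was at 15.3 among nuclei with a Slc37a2 UMI and 4.27 among those without. The AP-1 partners Jun, Junb and Jund were at 2.01, 1.90 and 1.75, and Fosl2 alone of the list was at 0.941. The same list was at least 1.5-fold higher in 19 of 22 measured genes in the other colonocyte nuclei, where 5.78% of 10073 genes were higher and 6.32% lower, so the pattern was not confined to the chosen nuclei.

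Ligands of the EGF receptor stood beside them. Hbegf, heparin-binding EGF-like growth factor, had 619.9 CPM (567 to 677) in Pink1 KO and 88.4 CPM (67.3 to 114) in WT, a ratio of 7.01 (5.34 to 9.34), which was 13.1 under the rule of 5 UMIs from 3 genes and 3.65 among nuclei without a Slc37a2 UMI. Areg, amphiregulin, had 311 CPM in Pink1 KO and 95.9 CPM in WT (ratio 3.24, and 1.81 after thinning), and the receptor inhibitor Errfi1 549.7 CPM in Pink1 KO and 165 CPM in WT (ratio 3.33). The receptor genes Egfr (1.25), Erbb2 (1.16) and Erbb3 (1.00) lay within the 1.5-fold bounds. Sgk1, a kinase that raises sodium channel activity and responds to corticosteroids, had 969 CPM in Pink1 KO and 165 CPM in WT (ratio 5.87, 4.81 to 7.24). Of 10 glucocorticoid target genes 5 were at least 1.5-fold higher and 0 lower, while Fkbp5 (1.18) and Klf9 (0.850), also targets of that receptor, lay within the bounds. The lists share genes, so their tallies are not separate. Among the glucocorticoid targets, Dusp1 and Errfi1 are also immediate early genes. Errfi1 is also in the EGF receptor list, and Sgk1 and Tsc22d3 are also sodium absorption genes.

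Sodium, chloride and bicarbonate transport genes did not move one way. Of 13 sodium absorption genes, 4 were at least 1.5-fold higher in Pink1 KO (Sgk1, Slc9a3, its scaffold Slc9a3r1 at 2.17 and Tsc22d3 at 1.64) and 2 lower, with a median log2 ratio of 0.16. The lower 2 were Nr3c2, the mineralocorticoid receptor, at 404 CPM in Pink1 KO and 654 CPM in WT (ratio 0.618), and Fxyd4, at 0.663, but in nuclei chosen after thinning to 500 UMIs these ratios were 1.08 for Nr3c2 and 1.00 for Fxyd4. Scnn1a was at 0.878 (0.630 to 1.23). The sulfate and chloride exchanger gene Slc26a2 had 2439 CPM in Pink1 KO and 3892 CPM in WT (ratio 0.627, 0.591 to 0.665), and Slc4a4 382 CPM in Pink1 KO and 519 CPM in WT (ratio 0.737, and 1.02 after thinning and 1.06 under the rule of 5 UMIs from 3 genes). Car2, a cytosolic carbonic anhydrase, had 260.1 CPM in Pink1 KO and 582 CPM in WT (ratio 0.447, 0.376 to 0.530), although its ratio was 1.03 in nuclei chosen after thinning. Slc40a1, the iron exporter ferroportin, had 352 CPM in Pink1 KO and 862 CPM in WT (ratio 0.409, 0.354 to 0.472).

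Clock genes went both ways. Those of 11 measured that were at least 1.5-fold lower in Pink1 KO were Nr1d2 (0.261, 0.184 to 0.365) and Nr1d1 (0.358), which encode the REV-ERB repressors, Tef (0.262, 0.168 to 0.399), an output factor, and Per3 (0.430). In nuclei chosen after thinning to 500 UMIs, 118 in Pink1 KO and 81 in WT, the Nr1d1 ratio reversed to 4.83. Few thinned UMIs of Nr1d1 and Cry1 remained there, so these reversals carry wide counting error. Arntl, the activator that the REV-ERB proteins repress, was at 1.80 (1.33 to 2.48) and Cry1 at 2.23 (1.18 to 4.46), which reversed to 0.230 after thinning, while Clock was at 0.822. The median log2 ratio of the list was -0.31. Nr1d2 was at 57.9 CPM in Pink1 KO and 222 CPM in WT, seen in 11.1% of the Pink1 KO nuclei and 36.4% of the WT nuclei.

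Other genes lowest in Pink1 KO were Zfhx3, Cited2, Pdk1, Mplkip, Sun2, Flna and Carmn. Pdk1, a kinase that restrains pyruvate oxidation, had 49.3 CPM in Pink1 KO and 157 CPM in WT (ratio 0.313, 0.212 to 0.455), whereas of 16 glycolysis genes 1 was at least 1.5-fold higher, 1 lower and 14 between. Cited2, a transcriptional coregulator, was at 0.232 with 13 counts in Pink1 KO and 46 in WT, Zfhx3, a homeobox factor, at 0.258 with 22 in Pink1 KO and 70 in WT, and Sun2, of the nuclear envelope, at 0.344 with 54 in Pink1 KO and 129 in WT. Mplkip, mutated in a form of trichothiodystrophy in humans, was at 0.326. In nuclei chosen after thinning the ratio was 0.887 for Sun2 and 0.0627 for Pdk1, the latter from few thinned UMIs. Flna, an actin crosslinker, and Carmn, a noncoding RNA of smooth muscle, had 20 and 8 counts in Pink1 KO and 64 and 58 in WT. Single nuclei held 50% of the Pink1 KO counts and 46.6% of the WT counts of Carmn, and 31.3% of the WT counts of Flna. Without nuclei holding at least 5 UMIs of another class's markers the Carmn ratio turned to 1.72, and the Flna ratio was 0.466.

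Genes of host defence were higher in Pink1 KO in part. Saa1 had 2043 counts in Pink1 KO and 808 in WT, 2518 CPM (2.08-fold, 1.92 to 2.26) against 1211 CPM. Duox2, a hydrogen peroxide generating oxidase, had 136 counts in Pink1 KO and 32 in WT (ratio 3.49, 2.36 to 5.31), and 1.25 among nuclei with a Slc37a2 UMI. Lypd8 had 3537 CPM in Pink1 KO and 2178 CPM in WT (ratio 1.62). Of 8 interferon and nucleic acid sensing genes, 5 were at least 1.5-fold higher and 0 lower, led by Irf7 (2.22), Gbp7 (2.16) and Ifit1bl1 (1.94). The 4 antigen presentation genes measured lay between the bounds, and of 12 NF-kB and chemokine genes 0 were higher and 3 lower, namely Tnfaip3 (0.496), Rel (0.548) and Il1rn (0.623).

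Transcription factors of the intestine went both ways, with 5 of 16 at least 1.5-fold higher in Pink1 KO and 3 lower. Id3 (3.08) and Id1 (2.09), inhibitors of helix-loop-helix factors that respond to bone morphogenetic proteins, were higher, as were Cdx2 (2.67, 39 counts in Pink1 KO and 12 in WT) and Elf3 (1.91). Klf5 had 414 CPM in Pink1 KO and 775 CPM in WT (ratio 0.534, 0.464 to 0.614), and Vdr, the vitamin D receptor, 291 CPM in Pink1 KO and 537 CPM in WT (ratio 0.542, 0.458 to 0.641). The Vdr ratio was 1.01 in nuclei chosen after thinning. Hnf4a was at 0.974 (0.794 to 1.19). Posterior Hox genes were lower in 3 of 6 cases and higher in 0, with a median log2 ratio of -0.62: Hoxd11 was at 0.618 (0.464 to 0.822), Hoxd13 at 0.548 and Hoxb13 at 0.589, each from 38 to 117 counts per library. The Hoxb13 ratio reversed to 1.72 in nuclei chosen after thinning, where few of its UMIs remained.

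Pink1 itself was too rare to check the label within these nuclei, with 5 counts in the Pink1 KO library and 11 in the WT library (ratio 0.374, 0.102 to 1.17). Over all kept nuclei it had 141 counts in Pink1 KO and 188 in WT (ratio 0.573, 0.457 to 0.716), and a 3′ tag outside the deleted part of a gene checks nothing. Transcripts of the mitochondrial genome were higher in Pink1 KO, at 1.49% of summed UMIs against 0.784% in WT, a ratio of 1.92 (1.85 to 1.98). The median share per nucleus was well below these, at 0.234% in Pink1 KO and 0.116% in WT, so the summed shares are not typical of single nuclei. Of 12 mitochondrial genes 11 were at least 1.5-fold higher, and the 12 ratios lay between 1.39 and 2.19. The ratio was 2.06 in the other colonocyte nuclei and 1.94 over all kept nuclei. Of 15 nuclear genes of mitophagy and mitochondrial dynamics 1 was at least 1.5-fold higher, the fusion gene Mfn2 (2.17, and 1.44 with 5 UMIs from 3 genes), and 2 were lower, the mitophagy receptor Bnip3l (0.476) and the coactivator Ppargc1a (0.423, 0.342 to 0.522), at 169 CPM in Pink1 KO and 399 CPM in WT. All CPM values leave mitochondrial transcripts out, and the part of their level in the other ratios was not tested.

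Several of these differences had a counterpart in the other colonocyte nuclei of the same libraries. Krt20 was 2.71-fold higher in Pink1 KO in the chosen nuclei and 2.33-fold in the other colonocyte nuclei, Plac8 3.04-fold and 2.89-fold, Ceacam1 2.47-fold and 2.30-fold, and Saa1 2.08-fold and 1.87-fold. Slc40a1 was at 0.409 in the chosen nuclei and 0.506 in the others, and Klf5 at 0.534 and 0.614. Intervals of the ratios did not overlap for Ly6m (16.1 in the chosen nuclei, 10.1 to 27.0, and 3.53 in the others, 2.28 to 5.68), Emp1 (5.55 and 2.28), Gcnt3 (5.66 and 1.96), Clca4a (4.15 and 2.27), Duox2 (3.49 and 1.37) and Muc3a (2.49 and 1.07). They did not overlap either for Slc26a2 (0.627 in the chosen nuclei and 1.01 in the others) and Vdr (0.542 and 0.925), nor for Egr1, whose ratio was lower in the chosen nuclei (9.35 and 19.4). Slc37a2 was at 0.181 (0.147 to 0.222) in the other colonocyte nuclei, but the rule had taken nuclei with several of its UMIs out of that group. Other rules brought several of these ratios in the chosen nuclei below those given for the other nuclei: Emp1 to 1.78 with 5 UMIs from 3 genes, Duox2 to 1.25 and Clca4a to 1.79 among nuclei with a Slc37a2 UMI, and Gcnt3 to 1.54 when the rule was applied to thinned nuclei. These differences between ratios were not tested, since a single library per genotype gives no spread. The share of all genes whose intervals did not overlap was not counted. Genes named for extreme ratios in the chosen nuclei also tend to have the larger ratio there.

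**Figure D4:**
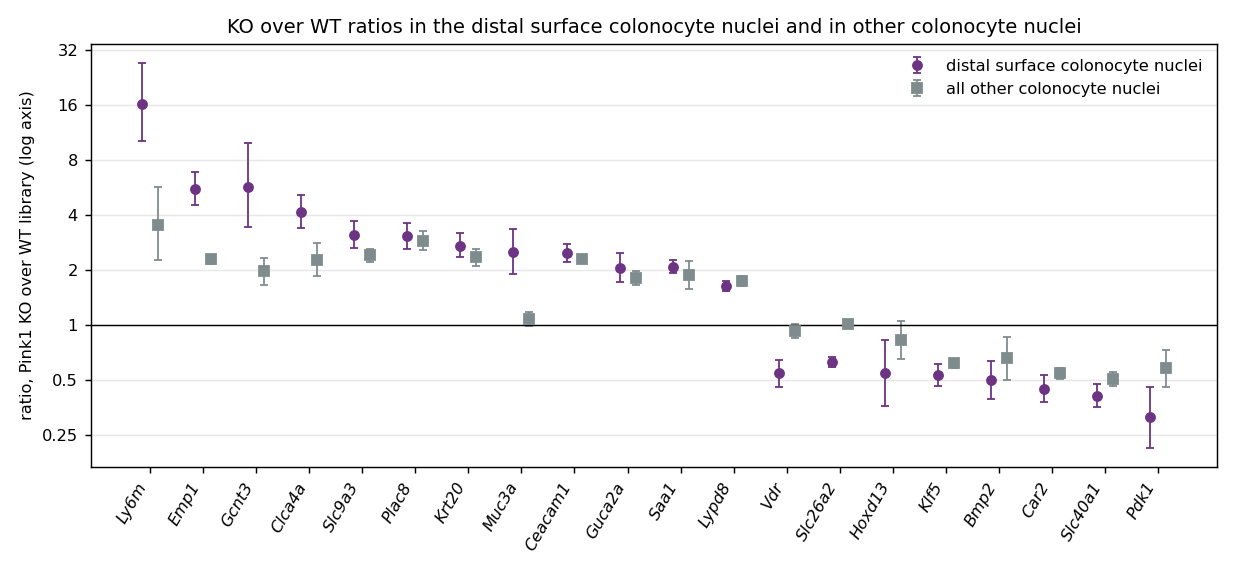
Ratio of Pink1 KO over WT library (log axis) of 20 genes in the distal surface colonocyte nuclei (circles) and in all other colonocyte nuclei (squares), with 95% intervals for counting error. Ly6m, Emp1, Gcnt3, Clca4a and Muc3a have higher ratios in the distal surface colonocyte nuclei, Slc26a2 and Vdr lower ones, and genes such as Krt20, Plac8 and Ceacam1 have ratios alike.

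Since Slc37a2 differed between the libraries, the chosen nuclei were also split by whether they had a Slc37a2 UMI: 169 with and 190 without in the Pink1 KO library, and 211 with and 86 without in the WT library. Within each library the nuclei with it had less Ly6m, Emp1, Clca4a and Aqp8 and more Slc26a2, Car2, Edn1 and Slc40a1 than those without. Emp1 was at 268 CPM with and 1520.0 CPM without in Pink1 KO (ratio 0.176), and at 115 CPM with and 309 CPM without in WT (ratio 0.371). Edn1, the endothelin precursor, was 1.58-fold higher with it in Pink1 KO and 1.83-fold in WT, and Slc26a2 1.52-fold in Pink1 KO and 1.51-fold in WT. A split by a gene of the rule is a description. Depth moved with it, with a median of 2005 UMIs with and 1857 without in Pink1 KO and 2253 with and 1685 without in WT, and its part was not tested.

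The ratios between libraries held on both sides of that split for many genes. Krt20 was 2.03-fold higher in Pink1 KO among nuclei with Slc37a2 (1.66 to 2.48) and 2.91-fold among those without (2.25 to 3.81). Slc9a3 was 1.79-fold higher with it and 4.73-fold without, Ly6m 15.4-fold with it, from 49 counts in Pink1 KO and 4 in WT, and 8.50-fold without. Slc40a1 was at 0.471 with it and 0.403 without, Car2 at 0.561 and 0.380, Klf5 at 0.569 and 0.548, and Ppargc1a at 0.544 and 0.308. Of the genes of the rule, Atp12a was at 1.99 with it and 1.45 without, Aqp8 at 1.46 and 1.52, and Car4 at 1.48 with it and 1.08 (0.935 to 1.25) without.

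**Figure D5:**
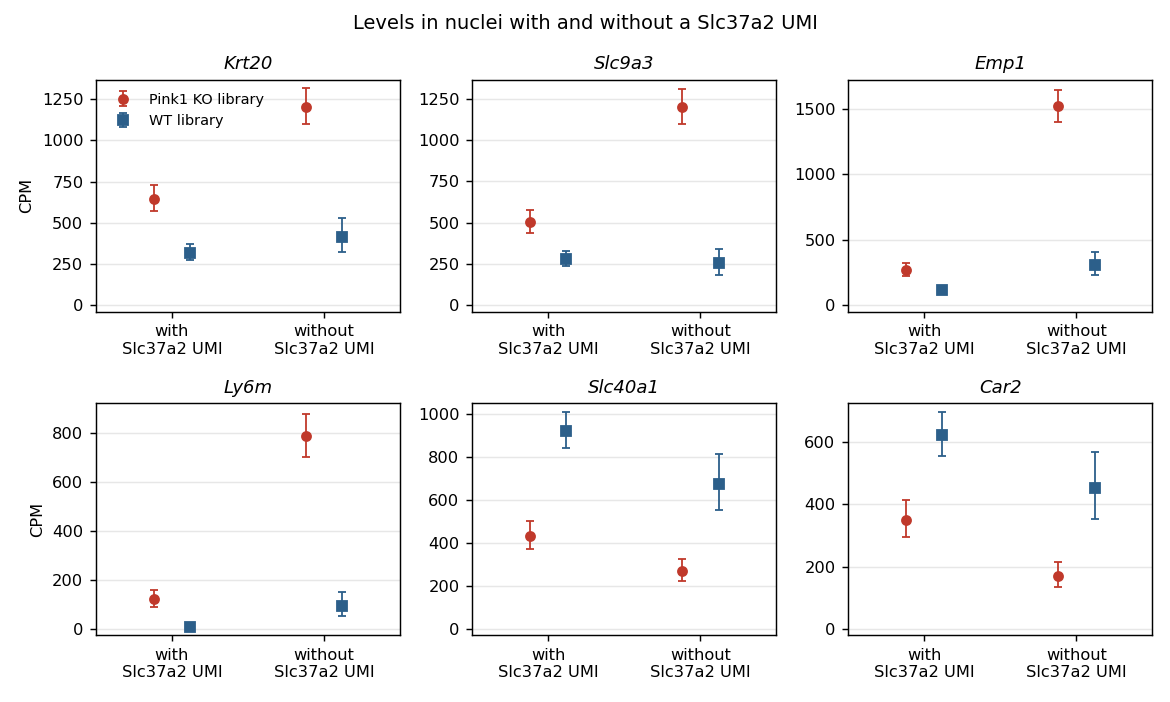
Levels in CPM of 6 genes in the distal surface colonocyte nuclei with and without a Slc37a2 UMI; circles are the Pink1 KO library, squares the WT library, and bars are 95% Poisson intervals. Krt20, Slc9a3, Emp1 and Ly6m lie higher in the Pink1 KO library on both sides, and Slc40a1 and Car2 lie lower.

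Shares of nuclei with a UMI followed the summed counts. Krt20 was seen in 66.0% of the Pink1 KO nuclei and 40.7% of the WT nuclei, and after thinning to 500 UMIs in 30.6% of the Pink1 KO nuclei and 12.1% of the WT nuclei. Sgk1 was seen in 69.1% of the Pink1 KO nuclei and 22.9% of the WT nuclei, and after thinning in 34.8% of Pink1 KO and 8.75% of WT nuclei. Fos was seen in 73.5% of the Pink1 KO nuclei and 25.3% of the WT nuclei, and after thinning in 35.7% of Pink1 KO and 8.75% of WT nuclei. Slc40a1 was seen in 41.5% of the Pink1 KO nuclei and 63.6% of the WT nuclei, and after thinning in 16.2% of Pink1 KO and 28.3% of WT nuclei.

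Markers of other cell types were uneven, and some classes stood near or above their level over all kept nuclei. Smooth muscle markers had 216 CPM in the chosen WT nuclei and 205 CPM over all kept WT nuclei. Blood endothelial markers had 86.3 and 74.5 CPM in Pink1 KO, and enteroendocrine markers 288 and 293 CPM. Markers of interstitial cells of Cajal had 330 and 278 CPM in Pink1 KO and 345 and 284 CPM in WT. In the chosen nuclei, Ano1 alone gave 247 of their 268 UMIs in Pink1 KO and 212 of 230 in WT. Ano1 is also in the list of chloride and bicarbonate transport genes, so this level is not specific to that cell type. Most other classes stood lower, such as goblet markers, at 1342 and 7664 CPM in Pink1 KO. The goblet markers include Muc2, which the rule limited. Muc2 had 545 CPM in the chosen Pink1 KO nuclei and 4232 CPM over all kept Pink1 KO nuclei. The goblet level was therefore set in part by the rule. The 6 enteroendocrine markers summed to 234 UMIs in the chosen Pink1 KO nuclei and 16 in the WT nuclei, with 52.1% of the Pink1 KO UMIs in 1 nucleus and Tph1 at 0 in WT. The 6 fibroblast markers summed to 166 UMIs in Pink1 KO and 90 in WT, the 5 smooth muscle markers to 53 in Pink1 KO and 144 in WT (32.6% in 1 nucleus), and the 9 goblet markers to 1089 in Pink1 KO and 631 in WT. Glia markers were close to 0 (3 UMIs in Pink1 KO and 2 in WT), and T cell markers summed to 2 in Pink1 KO and 1 in WT. Doublet scores among the highest of their library fell on 43 of the 359 Pink1 KO nuclei (12.0%) and 18 of the 297 WT nuclei (6.06%). The share called was set beforehand by the number of nuclei, at 9.72% of all kept nuclei in Pink1 KO and 7.11% in WT. Without the nuclei of highest doublet score, the ratio of Pink1 KO over WT was 16.9 for Ly6m and 5.72 for Emp1, and without nuclei holding at least 5 UMIs of another class's markers it was 16.6 for Ly6m. The libraries shared 28 barcodes, none of them among the chosen nuclei.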

How the data were processed

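The authors deposited raw UMI counts, 1 matrix of genes by nuclei for each library. The file headers name Cell Ranger 6.1.2, and the submitters' processing notes name mm10 and GRCm38. The sources used here do not give the annotation release, or whether introns were counted or doublets taken out. Nuclei with at least 500 UMIs, 300 genes and at most 10% mitochondrial UMIs were kept. Counts were summed over nuclei and given per 1000000 nuclear-encoded UMIs. With 1 library per genotype no test was made: intervals are exact 95% Poisson, conditional binomial (ratios) or Clopper-Pearson (shares), for counting error only. A change of 1.5-fold was used for counts of genes with at least 50 UMIs.

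Genes were named by the 10 highest and 10 lowest ratios by the interval bound nearest to 1. Members of 30 lists and the genes of the rule were added. The ranking excluded mitochondrial, Y-linked, immunoglobulin and hemoglobin genes, Xist, other classes' markers and unnamed transcripts. Other X-linked genes, such as Flna, were kept. Members, lists and markers were chosen with earlier results of these data known. Doublet scores came from Scrublet in scanpy 1.11.5, were not used in the main values and were tried as a filter. Other filters, rules, thinning, free RNA subtraction and comparison nuclei were also tried. Only the ratios and their intervals were tested on simulated data, as Poisson sums of counts. Those sums held no added spread between nuclei. Python 3.11.15, numpy 2.4.6, scipy 1.17.1, pandas 2.3.3 and matplotlib 3.10.9 were used. Promoters are from RefSeq. A few genes that met the rule for naming are not reported here.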

Additional observations from a re-analysis of the deposited data

Results flagged for a closer look

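In 9 of 4454 genes, the Pink1 KO over WT ratio differed in direction between the distal surface colonocyte nuclei and the other colonocyte nuclei. Both intervals were clear of 1, the ratio in the distal surface nuclei was past 1.5-fold, and 8 of the 9 are given here. The 4454 include genes left out of naming, such as markers of other classes, which could not be among the 9. How many genes would meet these bounds through counting error alone was not tested. The difference was not tested, since each genotype has 1 library. Higher in Pink1 KO in the distal surface colonocyte nuclei and lower in the others were Zeb2 (2.18 and 0.715), Erlec1 (1.82 and 0.804), Fam118b (1.70 and 0.746) and Zfyve27 (1.60 and 0.790). Lower in Pink1 KO in the distal surface colonocyte nuclei and higher in the others were Carmn (0.113 and 2.42), Flna (0.257 and 1.75), Ppp1r12b (0.560 and 1.37) and Bcap31 (0.577 and 1.35). Smooth muscle markers summed to 53 UMIs in the Pink1 KO nuclei and 144 in the WT nuclei, with 32.6% of the WT UMIs in 1 nucleus, and their part in these ratios was not tested for genes other than Carmn and Flna, whose ratios without nuclei rich in other classes' markers were 1.72 and 0.466.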

How the results depend on the processing

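Of 1983 alternative values for 140 results, 23 reversed and 305 moved beyond their counting interval. The median log2 ratio of Pink1 KO over WT ran from 0.43 to 0.93 for brush border genes, 0.96 to 1.31 for immediate early genes and -0.48 to -0.26 for clock genes, and from -0.02 to 0.41 for sodium absorption genes, where the stricter filter on nuclei gave -0.02. The ratio of shares was 1.07 when nuclei were thinned to 500 UMIs before the rule, which left 118 Pink1 KO and 81 WT nuclei. In this setting the thinned UMIs were also the ones counted, so ratios of rare genes rest on few UMIs. At that depth the ratio crossed 1 for Car2 (1.03), Slc4a4 (1.02), Nr1d1 (4.83), Cry1 (0.230), Vdr (1.01), Hoxb13 (1.72), Nr3c2 (1.08), Fxyd4 (1.00), Edn1 (1.10), Slc5a1 (1.38) and Ocln (1.61), and for Hdac1 over the Slc9a3, Krt20 and Guca2a nuclei in Pink1 KO (2.79). Slc4a4 was at 1.06 with 5 UMIs from 3 genes, and Car1 at 1.03 with a rule by share of UMIs. Brush border genes over the Slc9a3, Krt20 and Guca2a nuclei had a median of -0.53 in Pink1 KO after thinning. Against nuclei with Slc10a2, Abca12 and Slc13a1 it was 0.36 in Pink1 KO, against nuclei with Hsd3b3, Apol10a and Ces1f 0.74 in Pink1 KO and 0.58 in WT, and against all other colonocyte nuclei 0.53 in Pink1 KO and 0.42 in WT. Against the Slc10a2, Abca12 and Slc13a1 nuclei (13 in Pink1 KO and 16 in WT) the ratio was 1.02 for Emp1, 1.06 for Pcsk5 and 1.06 for Mgat4c in Pink1 KO, and 0.866 for Selenop and 1.14 for Car1 in WT. Alternatives chosen after seeing the data gave 1.13 for Car1 in WT against all other colonocyte nuclei, 1.72 for Carmn without nuclei rich in other classes' markers, 1.04 for Slc20a1 in nuclei with a Slc37a2 UMI, and 1.03 for Slc4a4 with the rule on thinned nuclei and full counts. That last setting chose the same nuclei as thinning but counted all their UMIs. Of the genes whose Pink1 KO over WT ratio crossed 1 after thinning, only Slc4a4 crossed it there. The cause was not tested. No paired analysis was possible because each genotype has 1 library. Leaving out a replicate was not possible for the same reason.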
